A study of Mus musculus with 16 samples.

Results

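Translation efficiency (TE) of clone 3 was compared with that of clone 2 in Hepa1-6 cells that lack exon 5 of Eef1d. Hepa1-6 is a mouse hepatoma line, and KO2 and KO3 were single clones in which CRISPR-Cas9 with a pair of guides around exon 5 had removed the exon on both alleles. KO2, like a further clone KO1, was made with the guides pS1 and pS4, whereas KO3 was made with pS2 and pS4, so that the clones differ in the guide on the intron 4 side and in the length of the deletion. The comparison used 8 of the 16 libraries of the series, chosen by their labels: 2 Ribo-seq and 2 RNA-seq libraries of each clone. The study called its replicates biological, and the RNA of each replicate was taken from the same lysate as its footprints. The other 8 libraries, of WT cells and KO1, did not enter the fit of KO3 against KO2 as reported, but counted in the choice of 1 transcript per gene. They also serve as levels beside the comparison, in 1 alternative fit and, for KO1, in comparisons with KO2 and KO3. Since each line was 1 clone, differences between KO3 and KO2 cannot be told apart into those of the guides and those of any 2 clones of this line.

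EEF1D is a subunit of the EEF1B complex, the guanine nucleotide exchange factor that recharges EEF1A with GTP after it has delivered an aminoacyl-tRNA to the ribosome. Exon 5 lies in the N-terminal part of the protein and is included or skipped by alternative splicing. Ribo-seq counts the mRNA fragments that ribosomes protect, so footprints of a gene reflect both how much of its mRNA is present and how densely it is occupied. TE, footprints relative to RNA, separates these: a gene whose RNA and footprints move together has an unchanged TE.

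The exon that both clones lack is shown here because it defines the lines. It covers chr15:75900691-75900762 of GRCm38 on the minus strand and counts 72 bases, or 24 codons. In the line below, the exon is in capitals and the 10 intron bases on each side are in lower case.
Eef1d exon 5: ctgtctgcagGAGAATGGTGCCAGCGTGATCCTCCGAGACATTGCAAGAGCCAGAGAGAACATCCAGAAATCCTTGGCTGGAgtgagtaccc

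With 1 transcript per gene, the RNA-seq libraries held 10563417 and 12325249 counts in KO2 and 12946815 and 12555618 in KO3. The Ribo-seq libraries held 3990733 and 2991720 in KO2 and 4168961 and 3287105 in KO3. Between the replicates of a clone, log2 CPM (counts scaled to the effective library size of each assay) of genes with at least 10 counts in both differed with an SD of 0.254 (KO2) and 0.235 (KO3) in RNA-seq and of 0.273 and 0.265 in Ribo-seq.

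The label of the cell line was checked against markers. Of 12 genes of the hepatocyte lineage, 9 had at least 10 counts in all 8 libraries, among them Afp, Alb, Hnf4a, Foxa2, Krt8 and Krt18, whereas the defining genes Apoa1, Ttr and Serpina1a had at most 6 counts in any library. Summed over the list, the RNA level was 4246 and 4239 CPM in KO2 and 6005 and 6173 CPM in KO3. Of the 9 genes, Alb, Afp and Krt8 were called higher in RNA in KO3 and Apob, Trf and Hnf4a lower (24.8% and 25.0% of all genes). The median RNA difference of the 9 was -0.10. Markers of myoblasts summed to between 0.842 and 1.95 CPM, of endothelium to between 0.474 and 1.79 CPM, and of leukocytes to between 5.37 and 9.26 CPM, the latter mostly from Cd68 and Csf1r. Fibroblast markers summed to 834 and 713 CPM in KO2 and 1102 and 1067 CPM in KO3, nearly all from Dcn, while Col1a2 and Thy1 were at 0 in every library. Col3a1 had 1 and 0 RNA counts in KO2 and 55 and 50 in KO3, and Pdgfra 51 and 66 against 17 and 22.

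Eef1d has transcripts of several lengths, and those of 248 and 272 counted codons had TE differences of -0.10 each, not called. The gene is represented here by a transcript of 543 counted codons. It was measured over the whole coding sequence, so its counts do not show the deletion. Its RNA stood at 206 and 202 CPM in KO2 and at 131 and 132 CPM in KO3, against 190 and 192 CPM in WT cells and 182 and 180 CPM in KO1. KO3 was thus the lowest line. The difference of -0.62 on the log2 scale (SE 0.0668) was called (edgeR adjusted p = 4.83e-09), and footprints fell with it, by 0.71 (SE 0.0756, adjusted p = 2.28e-08). The TE of Eef1d differed by -0.09 (SE 0.102), which was not called (adjusted p = 1.00).

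TE differed for few genes between the clones, while RNA and footprints differed for many. Of 11575 genes tested, 27 were called for TE (0.233%), 10 with a higher (0.0864%) and 17 with a lower TE (0.147%) in KO3. RNA was called for 5717 of 11485 genes (49.8%), 2847 higher and 2870 lower in KO3, and footprints for 4059 of 10481 (38.7%), 2004 higher and 2055 lower. An unadjusted p under 0.05 was found for 648 genes in TE (2.48% of all genes with a higher and 3.12% with a lower TE), against 6401 in RNA (55.7%) and 4846 in footprints (46.2%). The median standard error was 0.208 for TE, 0.112 for RNA and 0.152 for footprints, so smaller TE differences were less detectable than RNA differences of the same size.

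The TE count depended on how the lysates entered the fit. RNA and footprints of a replicate share a lysate, and with a term for each of the 4 lysates 72 genes were called, 24 higher and 48 lower, including all 27. Those terms leave less of each gene's own replicate spread to estimate. The p-values of that fit rest mostly on a spread shared over all genes, so its calls may be too many. Without replicate 2 of KO3 only 7 genes were called, and without replicate 1 of KO3 10 genes.

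For comparison, the 2 other pairs of clones were fitted in the same way. TE was called for 57 of 11676 genes (0.488%) between KO1 and KO2, which were made with the same guides, and for 95 of 11640 (0.816%) between KO3 and KO1, which differ in the intron 4 guide as KO3 and KO2 do. KO1 has the shallowest Ribo-seq library, and with all libraries of an assay thinned to the smallest total among the clones the counts were 17 between KO1 and KO2, 42 between KO3 and KO1 and 4 between KO3 and KO2. In both settings the pair KO3 and KO2 had the fewest calls of the 3 pairs. The pairs share libraries and the numbers of calls were not tested against each other.

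RNA and footprint differences followed each other over most genes. Of 10274 genes tested in both assays, 1703 were higher in both and 1758 lower in both, and 4 were called in opposite directions, all with higher RNA and lower footprints in KO3. RNA alone was called for 950 genes (higher) and 810 genes (lower), and footprints alone for 265 and 270. Of the 813 genes whose RNA was called and differed by more than 1 on the log2 scale, 809 had a footprint difference of the same sign, 734 were called for footprints in that direction and 12 were called for TE. Across genes, which are not independent replicates, Pearson's r of the RNA and footprint differences was 0.923.

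**Figure D1:**
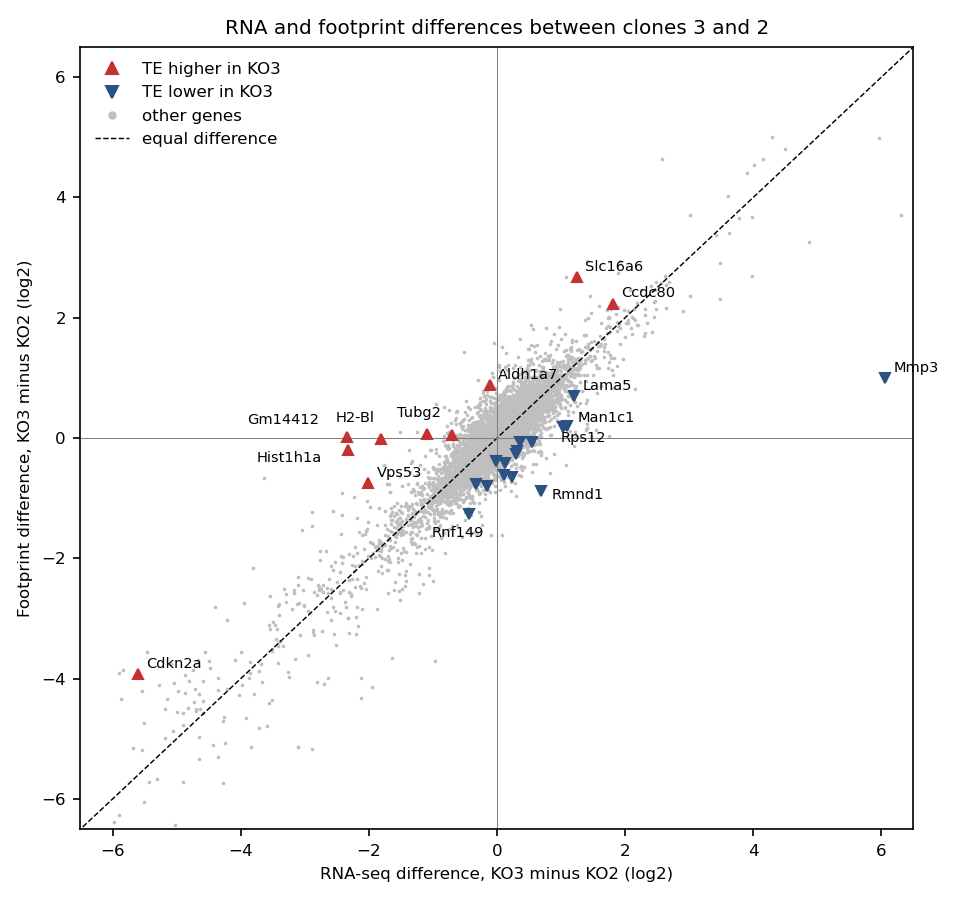
RNA-seq difference (x axis) against footprint difference (y axis) between KO3 and KO2, both on the log2 scale, for each gene tested in both assays, with genes called for TE as triangles and 17 genes outside the axes not drawn. Most genes lie along the dashed line of equal differences, TE genes with footprint differences between -0.20 and 0.20 and RNA differences past 1 in size include Hist1h1a, Gm14412, H2-Bl, Tubg2, Man1c1 and Adcy1, and Mmp3 lies far to the right.

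Among genes with at least 10 counts in each of the 4 libraries of an assay, the largest RNA differences were those of genes expressed weakly in 1 of the clones, and their footprints moved in the same direction. Cdkn2a, which encodes the cell cycle inhibitors p16 and p19, fell by 5.60, from 56.6 and 61.9 CPM in KO2 to 1.34 and 1.06 CPM in KO3. Mgam, a starch-digesting glucosidase (-5.51), Gm49394 (-4.94) and Pik3ap1, an adaptor of phosphoinositide 3-kinase (-4.90), fell as well. The largest rises were those of Add3, an adducin of the membrane skeleton (4.29), Lbp, the lipopolysaccharide-binding protein of liver and plasma (3.90), the chemokine Cxcl15 (3.6), the glycosyltransferase Galnt18 (3.47) and the transcription factor Klf2 (3.42). All these RNA differences were called (edgeR adjusted p at most 1.29e-12). Of these genes, Cdkn2a alone was called for TE.

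In footprints, the largest falls included those of Pnma5 (-4.49), Sec16b, which acts at ER exit sites (-4.25), and the chemokine Ccl2 (-4.17). The largest rises were those of Lbp (4.41), Cxcl15 (4.02), Klf2 (3.38), the ephrin receptor Ephb6 (2.69) and the monocarboxylate transporter Slc16a6 (2.67). For Lbp, RNA stood at 3.74 and 5.03 CPM in KO2 and at 67.1 and 64.6 CPM in KO3, and footprints at 4.25 and 6.02 against 112 and 103 CPM. Its TE difference of 0.52 (SE 0.292) was not called (adjusted p = 0.947).

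The 27 genes called for TE fell into 4 patterns by how RNA and footprints were called. For 9 genes RNA alone was called, for 5 footprints alone, for 4 both in opposite directions and for 8 both in the same direction but unequally. The remaining gene, Plekhg6, was not tested in Ribo-seq. TE and RNA differed in opposite directions for 21 of the 27. RNA counts enter the 2 differences with opposite sign, which by itself favors opposite directions. The share over all genes is not given here, so nothing is read from this count. The log2 TE of the KO2 and KO3 lysates did not overlap for any of the 27, and among all 10972 tested genes with counts in every library it did not overlap for 3893 (35.5%). Of the 27, 25 had at least 10 counts in each of the 8 libraries. When each of the 4 replicates was left out in turn, 5 genes (Mmp3, Hist1h1a, Vps53, Rps12 and Aldh1a7) were called every time, 4 genes (Arpc1b, Shoc2, H2-Bl and Hist2h2ab) in 3 of the 4 fits, Rnf149, Man1c1 and Sgo1 in 2, 14 genes in 1 and Slc16a6 in none.

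**Figure D2:**
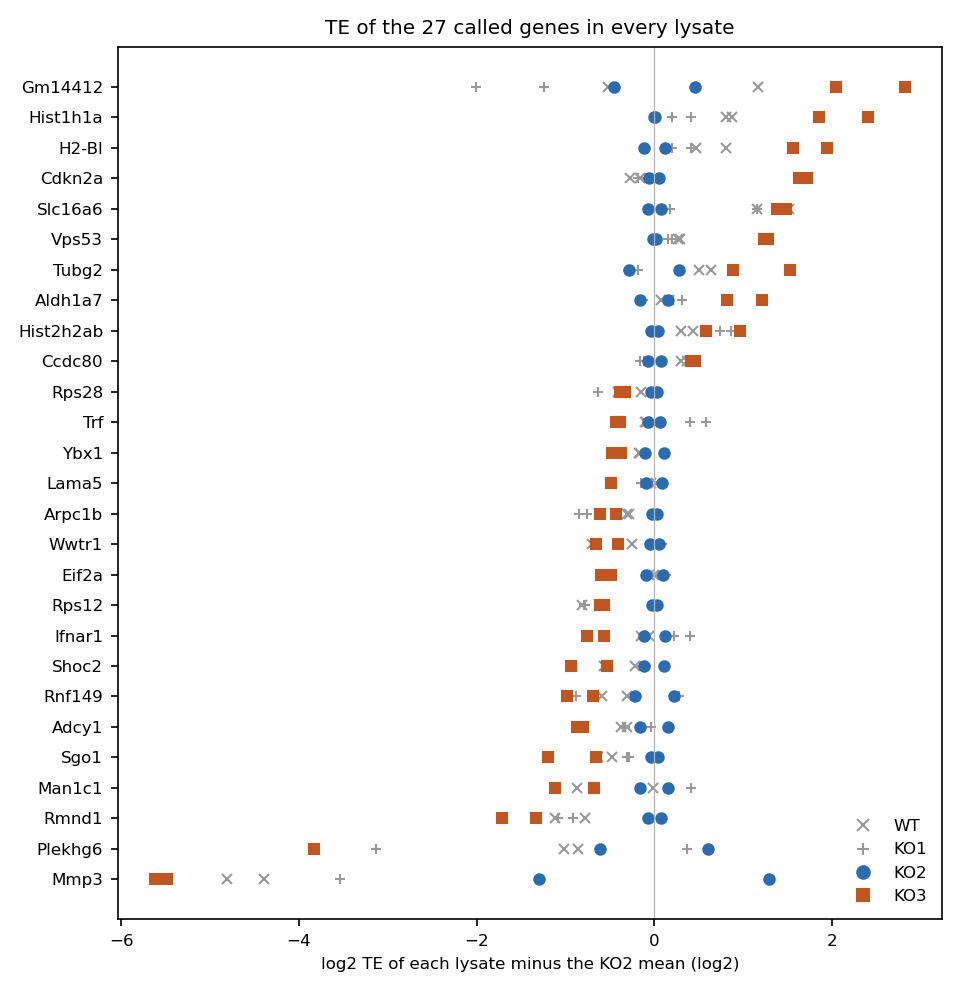
Log2 TE (footprint CPM over RNA CPM) of each lysate for the 27 genes called for TE, drawn relative to the mean of the KO2 lysates and ordered by the difference between KO3 and KO2, with 2 lysates per line. The KO3 squares and KO2 circles do not overlap in any row, and the grey marks of WT and KO1 lie on the KO2 side for genes such as Vps53 and Cdkn2a and on the KO3 side for genes such as Rps12. 1 KO3 lysate of Plekhg6 and 1 KO1 lysate of Mmp3 had 0 footprints and are not drawn.

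Hist1h1a, a linker histone that binds DNA between nucleosomes, had the most firmly called rise in TE. Its RNA stood at 30.5 and 37.3 CPM in KO2 and at 7.18 and 6.27 CPM in KO3, while its footprints stood at 108 and 131 CPM in KO2 and at 92.0 and 117 CPM in KO3. RNA was thus lower in both KO3 libraries and footprints overlapped. RNA fell by 2.32 (SE 0.157, edgeR adjusted p = 1.68e-13), footprints differed by -0.20 (SE 0.105, adjusted p = 0.142), and TE rose by 2.13 (SE 0.187, adjusted p = 2.29e-10). Log2 TE was 1.83 and 1.81 in KO2 and 3.68 and 4.22 in KO3, against 2.69 and 2.63 in WT cells and 2.24 and 2.02 in KO1, so that KO3 stood above every other line. The gene lies at chr13:23763666-23764406 on the plus strand.

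A second histone, Hist2h2ab, which encodes an H2A core histone (chr3:96219865-96220308, plus strand), showed the same pattern at a smaller size. RNA was at 17.1 and 18.1 CPM in KO2 and at 9.24 and 12.4 CPM in KO3, and footprints were at 537 and 597 CPM in KO2 and at 582 and 597 CPM in KO3. RNA fell by 0.70 (SE 0.166, edgeR adjusted p = 0.000816), footprints differed by 0.06 (SE 0.0658, adjusted p = 0.526), and TE rose by 0.76 (SE 0.144, adjusted p = 0.00543).

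Replication-dependent histone mRNAs end in a conserved stem-loop in place of a poly(A) tail. The labels name polyA RNA as the material of the RNA-seq libraries, while the methods of the study describe depletion of ribosomal RNA, and which of them applies was not settled here. The stem-loops of both genes are printed because the way such mRNAs enter an RNA-seq library depends on their 3′ end. They were searched in the 100 genomic bases after the coding sequence, on the strand of the gene only, as 2 G, any 2 bases, CTTTT, any base, AG, any 2 bases and 2 C. In the lines below the 16 bases of the match are in capitals and the 5 bases on each side are in lower case, and the printed stretches cover chr13:23764387-23764412 and chr3:96220328-96220353 of GRCm38, both on the plus strand.
Hist1h1a: ccaacGGCTCTTTTCAGAGCCaccaa
Hist2h2ab: aaaaaGGCTCTTTTAAGAGCCaccaa

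The motif was found after 66 of 22174 coding sequences (0.298%), among them 6 of 8 linker histones and 56 of 60 core histones. The linker histones without it were H1f0 and H1fx. Among 59 core histones tested, RNA was higher in KO3 for 45 and lower for 1, Hist2h2ab, against 24.8% higher and 25.0% lower among all genes. Footprints were higher for 34 and lower for 0, against 19.1% and 19.6% of all genes. TE was called for Hist2h2ab alone (0.233% of all genes were called), and the median TE difference of the list was -0.05, against -0.0043 over all genes tested. Among the linker histones, RNA was higher for 5 of 7 tested and lower for 2, Hist1h1a and H1fx (24.8% and 25.0% of all genes). Their footprints were higher for 5 of 8 and lower for 1, H1fx (19.1% and 19.6% of all genes). H1fx fell by 0.77 in RNA and its footprints fell by 0.48, with a TE difference of 0.29 (SE 0.15) that was not called. RNA of Hist1h1e (0.24), Hist1h1c (0.51), Hist1h1d (0.50) and Hist1h1b (0.46) rose, their footprints rose by between 0.23 and 0.46, and none of the 4 was called for TE. Histone genes share near-identical coding sequences, so counts of single members are uncertain. The numbers of members called may also repeat the same reads, and the shares of all genes are then no like measure. Hist1h3b had 17438 and 14475 footprints in KO2 and 21464 and 18678 in KO3, and Hist1h3h had 17703 and 14685 against 22246 and 19335.

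The other genes with RNA alone called were H2-Bl, Gm14412 and Tubg2 (TE higher) and Rps12, Ybx1, Man1c1 and Adcy1 (TE lower). Rps12, a protein of the small ribosomal subunit, had RNA at 1304 and 1294 CPM in KO2 and at 1891 and 1866 CPM in KO3, and footprints at 171 and 163 CPM against 164 and 157 CPM. RNA rose by 0.54 (SE 0.0483, edgeR adjusted p = 8.47e-11), whereas footprints differed by -0.06 (SE 0.0755, adjusted p = 0.554), and TE fell by 0.60 (SE 0.0938, adjusted p = 0.00030). Log2 TE was -2.93 and -2.99 in KO2, above all other lines, which stood between -3.77 and -3.52.

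Ybx1, which encodes an abundant mRNA-binding Y-box protein, had RNA at 1416 and 1541 CPM in KO2 and at 1868 and 1908 CPM in KO3, with footprints at 633 and 593 against 599 and 568 CPM. Footprints overlapped between the clones while RNA did not, and TE fell by 0.43 (SE 0.0861, edgeR adjusted p = 0.0107). Man1c1, a Golgi mannosidase that trims N-glycans, and Adcy1, an adenylyl cyclase, had RNA rises of 1.09 and 1.03 with footprint differences of 0.19 and 0.18 that were not called. Their TE fell by 0.90 and 0.84.

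H2-Bl, a class I histocompatibility gene, fell in RNA by 1.81, from 72 and 95 counts in KO2 to 28 and 23 in KO3, with footprints of 110 and 80 against 129 and 67 counts. Gm14412, a predicted gene, fell in RNA by 2.34, from 76 and 75 to 20 and 12 counts, with footprints of 15 and 18 against 19 and 16. Tubg2, a gamma-tubulin, fell by 1.10, from 97 and 131 to 49 and 65 RNA counts. TE rose by 1.79, 2.36 and 1.18, with SE of 0.317, 0.506 and 0.274 that reflect these low counts. H2-Bl, Gm14412, Tubg2, Rps12 and Ybx1 have close paralogues or pseudogenes, and their counts are uncertain where reads could not be placed.

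Footprints moved without a called RNA difference for 5 genes. Aldh1a7, an aldehyde dehydrogenase, had footprints at 250 and 254 CPM in KO2 and at 458 and 472 CPM in KO3, and RNA at 14.4 and 11.8 against 10.2 and 13.8 CPM. RNA overlapped between the clones and footprints did not. Footprints rose by 0.88 (SE 0.0659, edgeR adjusted p = 2.93e-11), RNA differed by -0.11 (SE 0.178, adjusted p = 0.638) and TE rose by 0.99 (SE 0.155, adjusted p = 0.00030). In WT and KO1 the footprints stood between 267 and 271 CPM, near KO2, so that KO3 was the line apart. Aldh1a7 is closely related to Aldh1a1, and its counts may share reads with it.

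The other 4 fell. Shoc2, a scaffold that links Ras to RAF kinases, had footprints at 93.0 and 102 CPM in KO2 and at 70.2 and 56.0 CPM in KO3, with RNA at 202 and 190 against 205 and 215 CPM, and its TE fell by 0.72 (SE 0.125, edgeR adjusted p = 0.00182). Wwtr1, the Hippo pathway coactivator TAZ, had footprints at 94.2 and 92.0 against 73.4 and 65.3 CPM, and its TE fell by 0.54 (SE 0.123, adjusted p = 0.0493). For Ifnar1, a chain of the type I interferon receptor, footprints were at 50.7 and 59.2 against 32.6 and 29.5 CPM, and its TE fell by 0.65 (SE 0.153). Rps28, of the small ribosomal subunit, had RNA between 627 and 643 CPM in all 4 libraries and footprints at 466 and 439 against 351 and 341 CPM, and its TE fell by 0.37 (SE 0.0866). In none of these 4 did footprints of KO2 and KO3 overlap.

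RNA rose while footprints fell for Arpc1b, Sgo1, Eif2a and Rmnd1, which are the 4 genes with opposite calls among all those tested in both assays, and all 4 were called for TE. Without replicate 2 of KO3, where 1 library of each assay is left in that clone, none of the 4 was called (adjusted p from 0.129 to 0.766). Arpc1b, a subunit of the Arp2/3 complex that nucleates branched actin, had RNA at 612 and 667 CPM in KO2 and at 765 and 805 CPM in KO3, with footprints at 340 and 356 against 310 and 287 CPM. RNA rose by 0.31 (SE 0.0565, edgeR adjusted p = 3.89e-05), footprints fell by 0.22 (SE 0.0671, adjusted p = 0.0109) and TE fell by 0.52 (SE 0.0917, adjusted p = 0.00185). Eif2a, an initiator tRNA-binding factor distinct from the trimeric eIF2, had RNA at 115 and 101 against 138 and 124 CPM and footprints at 131 and 131 against 111 and 108 CPM, and its TE fell by 0.55 (SE 0.119, adjusted p = 0.0253). In both assays the values of the clones did not overlap for either gene.

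Sgo1, shugoshin, which protects cohesin at centromeres, had footprints of 153 and 109 counts in KO2 and 115 and 60 in KO3, and its TE fell by 0.88 (SE 0.184, edgeR adjusted p = 0.0200). Rmnd1, which is needed for translation in mitochondria, had footprints of 34 and 21 counts in KO2 and 16 and 15 in KO3, and its TE fell by 1.56 (SE 0.341, adjusted p = 0.0308). Log2 TE of Rmnd1 was -1.12 and -1.27 in KO2, -2.90 and -2.52 in KO3 and between -2.31 and -1.97 in WT and KO1, so that the other lines stood between the clones.

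**Figure D3:**
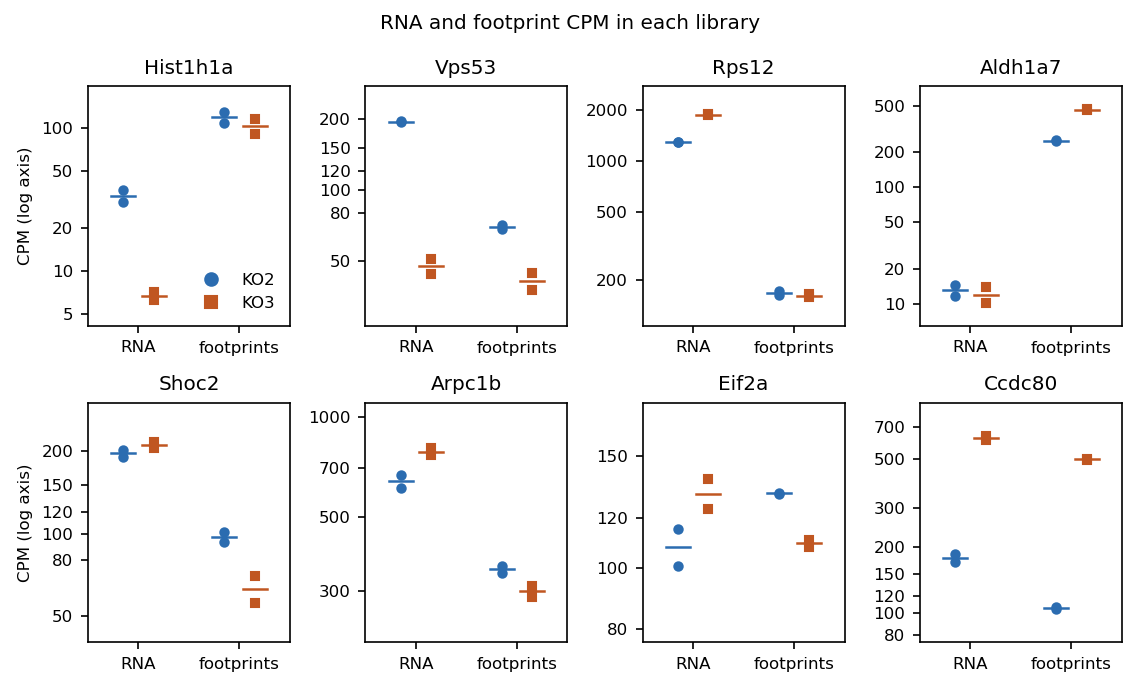
RNA-seq and footprint levels in CPM (log axis, which differs between panels) of 8 genes called for TE, with 1 point per library and a bar at the mean of the 2 replicates of KO2 and of KO3. RNA differs and footprints are level in Hist1h1a and Rps12, footprints differ and RNA is level in Aldh1a7 and Shoc2, the 2 move in opposite directions in Arpc1b and Eif2a, and they move together but unequally in Vps53 and Ccdc80.

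For the remaining 8 genes RNA and footprints moved together but unequally. Vps53, a subunit of the tethering complexes that receive endosome-derived vesicles, had RNA at 194 and 193 CPM in KO2 and at 51.0 and 44.2 CPM in KO3, and footprints at 71.0 and 68.6 against 44.7 and 37.6 CPM. RNA fell by 2.01 (SE 0.0794), footprints by 0.75 (SE 0.114), and TE rose by 1.26 (SE 0.145, edgeR adjusted p = 3.44e-07). Log2 TE was between -1.49 and -1.18 in all lysates of WT, KO1 and KO2 and at -0.19 and -0.23 in KO3. Of the 10 tested transcripts of Vps53 all had a higher TE in KO3 and 5 were called, and the lowest value, 0.19, was that of a transcript of 32 counted codons with an SE of 1.2.

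Mmp3, the matrix metalloproteinase stromelysin 1, had 5 and 1 RNA counts in KO2 and 244 and 205 in KO3, with 83 and 65 against 189 and 119 footprints. RNA and footprints were both higher in KO3 in both replicates. The fitted TE difference of -5.04 (SE 0.426, edgeR adjusted p = 1.42e-10) rests on those 6 RNA counts, and it ranged from -6.59 to -4.20 when a replicate was left out. In WT cells log2 TE of Mmp3 was 2.37 and 1.96, against 5.47 and 8.06 in KO2 and 1.28 and 1.15 in KO3. In KO1 its RNA was as low as in KO2, at 0.0868 and 0.189 CPM, and log2 TE was 3.23 in 1 lysate while the other had 0 footprints.

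Cdkn2a RNA fell by 5.60 and its footprints fell by 3.92, from 233 and 206 footprints in KO2 to 18 and 12 in KO3, and its TE rose by 1.67 (SE 0.388, edgeR adjusted p = 0.0493). Its second tested transcript had a TE difference of 0.80 (SE 0.352), which was not called (adjusted p = 0.814). Slc16a6 rose by 1.25 in RNA and by 2.67 in footprints, from 12 and 11 to 86 and 68 counts, and its TE rose by 1.43. Ccdc80, a secreted matrix protein, rose by 1.81 in RNA and by 2.23 in footprints, from 105 and 106 CPM to 501 and 493 CPM, and its TE rose by 0.43. In all 3 the footprint difference lay above the RNA difference.

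Trf, Lama5 and Rnf149 had footprint differences below their RNA differences. Trf, the iron carrier transferrin, had RNA at 596 and 583 CPM in KO2 and at 468 and 460 CPM in KO3 and footprints at 545 and 486 against 312 and 298 CPM, and its TE fell by 0.42 (SE 0.0901, edgeR adjusted p = 0.0249). Lama5, the laminin alpha 5 chain of basement membranes, rose by 1.21 in RNA but by 0.69 in footprints. Rnf149, a membrane ubiquitin ligase, fell by 0.43 in RNA and by 1.26 in footprints. Of the 3 tested transcripts of Rnf149 the one of 385 counted codons was called, and the shorter ones had differences of 0.04 (SE 0.261) and 0.79 (SE 1.11) that were not.

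Plekhg6 had 9 and 11 footprints in KO2 and 0 and 1 in KO3, on 21 and 17 against 26 and 31 RNA counts. It was called for TE (edgeR adjusted p = 0.0493), and no size is given for it because 1 footprint was left in KO3.

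Beside WT and KO1, KO3 lay outside the range of all 6 other lysates for 16 of the 27 genes and KO2 did so for 12, among them 5 genes for which both clones did so, on opposite sides of the other lines, and for 4 genes neither did. Among 10697 tested genes with counts in all 16 libraries these shares were 9.55% for KO3, 7.31% for KO2 and 0.524% for both. As the genes were called on the difference between the clones, the larger shares are a description. Rps12, Rps28, Ybx1, Arpc1b, Hist2h2ab, Mmp3 and Slc16a6 were the genes for which KO2 alone was apart, which for Mmp3 rests on 5 and 1 RNA counts and on 1 measured KO1 lysate. Both clones were apart for Hist1h1a, Vps53, H2-Bl, Sgo1 and Rmnd1.

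The factors that EEF1D works with were looked at as a group. The list holds the GTPase EEF1A (Eef1a1, Eef1a2), the EEF1B subunits (Eef1b2, Eef1d, Eef1g), the valyl-tRNA synthetase that joins them (Vars), the translocase Eef2 and the ER membrane proteins Ktn1 and Rrbp1. None of the 9 genes was called for TE (0 higher, 0 lower, against 0.233% of all genes called). Leaving aside Eef1a2, which had no RNA counts in KO2, all 8 had TE differences below 0 (51.0% of all genes did), with a median of -0.23, and 6 of 8 had an unadjusted p under 0.05 with a lower TE (3.12% of all genes). Without replicate 1 of KO2 the median was -0.12 and 1 of 8 had such a p, and without replicate 2 of KO3 the median was -0.19 and 1 of 8 had one. Relative to the median of all genes, the median log2 TE of the 8 was -0.07 and -0.28 in the KO2 lysates and -0.33 and -0.44 in those of KO3, with -0.17 and -0.18 in WT and -0.16 and -0.28 in KO1. With a term for each lysate, where 0.622% of all genes were called and 0.415% with a lower TE, 4 of the 9 were called, each with a lower TE in KO3: Eef2 (-0.28, edgeR adjusted p = 0.000963), Eef1a1 (-0.24, adjusted p = 0.00603), Rrbp1 (-0.35, adjusted p = 0.0106) and Eef1b2 (-0.28, adjusted p = 0.0135). In the fit without that term, leaving out replicate 1 of KO2 moved Eef2 to -0.12, Eef1a1 to -0.14 and Rrbp1 to -0.19, and leaving out replicate 2 of KO2 moved them to -0.43, -0.34 and -0.50. Log2 TE in KO2 and KO3 was 0.60 and 0.29 against 0.27 and -0.05 for Rrbp1, and -0.43 and -0.73 against -0.78 and -0.92 for Eef2. It was -0.30 and -0.50 against -0.58 and -0.68 for Eef1a1, and -0.47 and -0.56 against -0.78 and -0.79 for Eef1b2. The p-values with the lysate term rest mostly on a spread shared over all genes and may understate this spread.

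RNA and footprints of these genes differed in several ways. Eef2 RNA stood at 3781 and 4284 CPM in KO2 and at 6511 and 6810 CPM in KO3, and its footprints rose less, from 2805 and 2574 to 3799 and 3589 CPM. Eef1b2 footprints fell by 0.44 (SE 0.0637, edgeR adjusted p = 3.31e-06), from 973 and 898 to 705 and 674 CPM, and its RNA fell by 0.16 (adjusted p = 0.00805). Eef1g footprints fell by 0.28 (adjusted p = 0.00152), while its RNA differed by -0.05 (adjusted p = 0.40).

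Eef1a1 RNA rose by 0.20 (edgeR adjusted p = 0.000187), and its footprints, between 5268 and 5768 CPM in all 4 libraries, overlapped. Rrbp1 RNA rose by 0.31 (adjusted p = 0.000168), with a footprint difference of -0.05 (adjusted p = 0.660). Vars had a TE difference of -0.20 and Ktn1 one of -0.06. Eef1a2, the isoform of muscle and neurons, had 0 and 0 RNA counts in KO2 and 4 and 4 in KO3, and no size is given for it.

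Ribosomal protein genes had small TE differences that nearly all pointed down. All 32 genes of the small subunit lay below 0, with a median of -0.18, and 46 of 47 genes of the large subunit did, with a median of -0.14, against a median of -0.0043 over all genes. Called with a lower TE were Rps12 and Rps28 in the small subunit and none in the large (0.147% of all genes). An unadjusted p under 0.05 with a lower TE was found for 18 of 32 and 15 of 47 (3.12% of all genes). With a term for each lysate (0.415% of all genes lower), 5 of the small subunit, among them Rps12, Rps18, Rps19 and Rps28, and 1 of the large (Rpl32) were called, all lower.

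In the small subunit, RNA was higher in KO3 for 17 of 32 genes and lower for 2 (24.8% and 25.0% of all genes), while footprints were higher for 5 and lower for 5 (19.1% and 19.6% of all genes). In the large subunit, RNA was higher for 15 of 47 and lower for 5, and footprints were higher for 5 and lower for 10. Relative to the median of all genes, the median log2 TE of the small subunit was -0.058 and -0.079 in the KO2 lysates and -0.24 and -0.26 in those of KO3, with -0.084 and -0.22 in WT and -0.19 and -0.38 in KO1. For the large subunit it was -0.11 and -0.17 in KO2, -0.35 and -0.31 in KO3, -0.26 and -0.31 in WT and -0.31 and -0.46 in KO1. KO2 thus had the highest values of the 4 lines, and KO3 lay within the range of WT and KO1. The members share lysates, may share reads with pseudogenes, and are not replicates of each other.

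Other parts of the translation machinery had medians nearer to that of all genes. The 42 initiation factors had a median TE difference of 0.0022, with Eif2a the single call (0.233% of all genes were called). The most abundant members Eif4a1 (0.10), Eif5a (0.02) and Eif4g2 (0.03) lay near 0, whereas Pabpc1, the poly(A)-binding protein, had -0.23 (edgeR adjusted p = 0.555). With a term for each lysate, 3 of the 42 were called, all lower, against 0.415% of all genes. They were Eif2a, Eif4b (-0.28, edgeR adjusted p = 0.0307) and Pabpc1 (-0.23, adjusted p = 0.0400). Over 19 further lists, among them mitochondrial ribosomal proteins, aminoacyl-tRNA synthetases, ribosome biogenesis factors, ATF4 targets, ER chaperones, the translocon and the proteasome, none of 556 tested members was called for TE, which is near the share of 0.233% over all genes, and the medians lay between -0.05 and 0.05. With a term for each lysate, 6 of the 556 were called (0.622% of all genes were), 4 higher and 2 lower. They included the alpha-tubulins Tuba1b (0.31, edgeR adjusted p = 0.000226) and Tuba1c (0.27, adjusted p = 0.00407) and the stress-induced transcription factor Atf4 (0.39, adjusted p = 0.0128), all higher, and the replication helicase subunit Mcm7 (-0.28, adjusted p = 0.0443). Footprint counts of the alpha-tubulins were close in every library, at 8350 and 5932 (KO2) and 9954 and 7612 (KO3) for Tuba1b. For Tuba1c they were 8069 and 5724 (KO2) and 9674 and 7368 (KO3). The 2 genes may share reads, so their calls may not be separate.

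**Figure D4:**
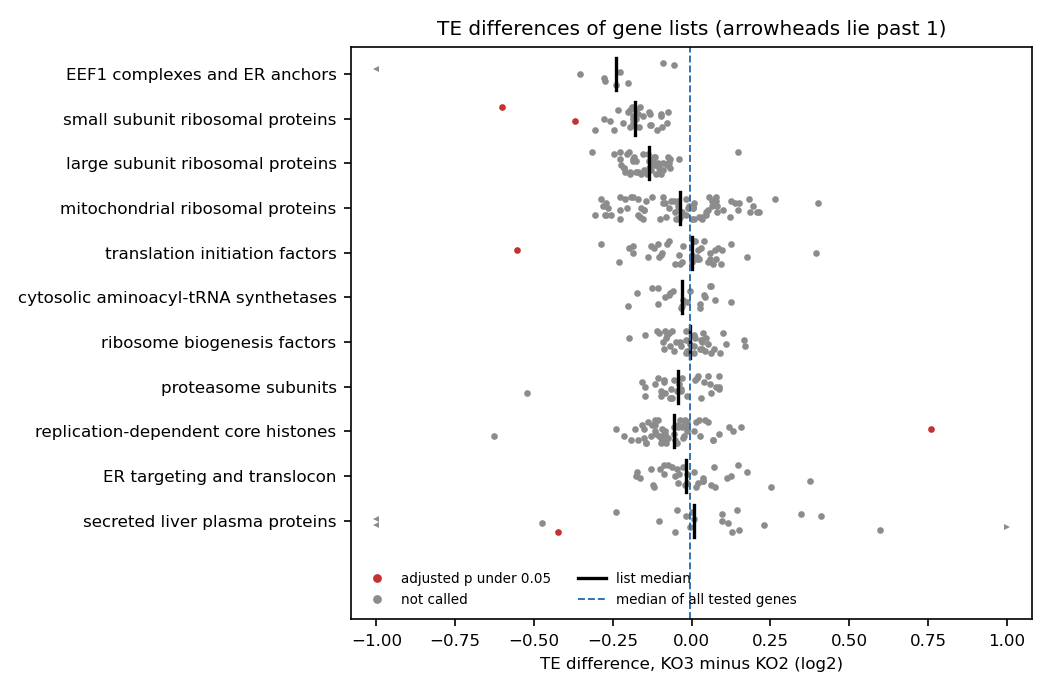
TE difference between KO3 and KO2 (log2, x axis) of the tested members of 11 gene lists, 1 point per gene, with list medians as black bars and the median of all tested genes as a dashed line. The EEF1 list and both ribosomal subunits lie to the left of the dashed line, with medians of -0.24 (over 9 genes, Eef1a2 included), -0.18 and -0.14, and the other lists straddle it.

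Secreted proteins of the liver differed in RNA and footprints alike. Alb, serum albumin, stood at 522 and 469 CPM in RNA of KO2 and at 1751 and 1872 CPM in KO3, and in footprints at 865 and 733 against 2815 and 2998 CPM. RNA rose by 1.88 (edgeR adjusted p = 6.73e-22) and footprints by 1.86 (adjusted p = 5.31e-17), and TE differed by -0.02 (SE 0.0944, adjusted p = 1.00). Afp, alpha-fetoprotein, rose by 0.99 in RNA and by 0.93 in footprints, with a TE difference of -0.05. Apoe and Igfbp4 rose by 0.28 and 0.26 in RNA, and their TE differences were near 0. Of the list, 23 genes were tested for TE, Trf was the single call (0.233% of all genes were called). RNA was higher for 11 and lower for 8 of 22 (24.8% and 25.0% of all genes), and footprints were higher for 13 and lower for 6 of 22 (19.1% and 19.6%).

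Genes of the extracellular matrix were higher in RNA in KO3 for 17 of 24 tested and lower for 5 (24.8% and 25.0% of all genes), with a median of 0.68, against 0.0026 over all genes. Footprints were higher for 16 of 21 and lower for 5 (19.1% and 19.6% of all genes). Thbs1, thrombospondin 1, rose by 1.61 in RNA and by 1.53 in footprints, Fn1, fibronectin, by 0.24 and 0.21, and Hspg2, perlecan, by 0.34 and 0.22, and none of the 3 was called for TE. Lama5 and Mmp3 were the 2 TE calls among 23 genes of the list, against 0.233% of all genes. Of the fibroblast markers, Dcn and Col3a1 RNA was likewise higher in KO3 and that of Pdgfra lower, and their part in the result was not tested.

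RNA differences between the clones were not spread evenly over the genome, a pattern that was noticed in these data and is described without a test. The median RNA difference of the genes of a chromosome ranged from -0.37 to 0.53 over 20 chromosomes and lay past 0.2 in size on 6 of them. Chromosome 12 had the highest median, with 374 genes of which 260 were called higher and 22 lower, chromosome 18 had a median of 0.47, with 217 of 306 genes called higher and 19 lower, and chromosomes 10 and 2 had medians of 0.37 and 0.24. Chromosome 1 had a median of -0.37, with 42 of 660 genes called higher and 408 lower, and chromosome 6 one of -0.36. The median difference between replicates of a clone was at most 0.0287 in size on any chromosome.

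Footprints followed, with medians of 0.50 on chromosome 12, 0.46 on chromosome 18, 0.33 on chromosome 10, 0.22 on chromosome 2, -0.38 on chromosome 1 and -0.36 on chromosome 6, and TE medians lay between -0.04 and 0.03 on all 20 chromosomes. The 6 chromosomes held 3277 of the genes tested for TE and RNA, of which 66.8% were called for RNA and 6 for TE. The 14 others held 7879, of which 43.1% were called for RNA and 21 for TE. Over all genes tested, 0.233% were called for TE. Parts of other chromosomes stood apart too. On chromosome 4, the median RNA difference was between -0.50 and -0.38 in each 20 Mb window up to 100 Mb and between -0.03 and 0.13 beyond. Cdkn2a lies in the window from 80 to 100 Mb, at chr4:89274471-89282192.

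Both clones contributed to these medians. Relative to WT cells, the median RNA difference of chromosome 12 was -0.21 in KO2 and 0.31 in KO3, that of chromosome 18 -0.13 and 0.31, that of chromosome 10 -0.26 and 0.08, that of chromosome 2 -0.05 and 0.17, that of chromosome 1 0.27 and -0.10, and that of chromosome 6 0.05 and -0.33. DNA copy number was not measured in these samples, and its part in the result was not tested.

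**Figure D5:**
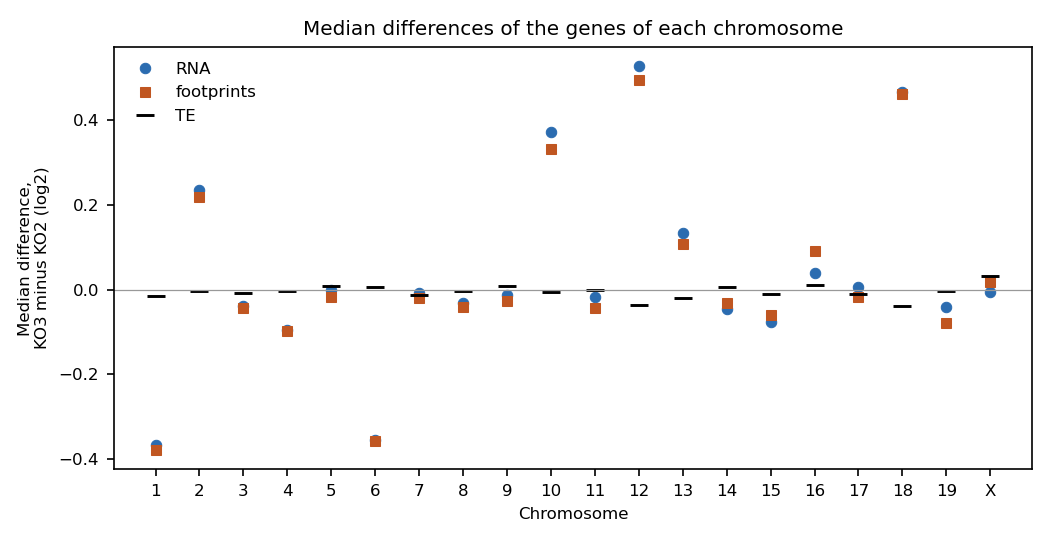
Median difference between KO3 and KO2 (log2, y axis) in RNA, footprints and TE over the genes of each chromosome (x axis). RNA and footprint medians range from -0.37 and -0.38 on chromosome 1 to 0.53 and 0.50 on chromosome 12 and lie on or next to each other, while TE medians stay between -0.04 and 0.03.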

How the data were processed

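The authors trimmed reads with fastp 0.21.0, removed reads from noncoding RNA, aligned the rest to mm10 and assigned them on GENCODE vM23 with STAR 2.7.0a. They deposited raw counts of A sites on each coding sequence without its first and last 5 codons, for 67139 transcripts of 22392 gene symbols, unnormalized and with replicates apart. Each gene was represented by its transcript with the largest sum over all 16 libraries, placed with GENCODE vM21 on the same build (22174 genes could be placed).

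Tests used edgeR 4.0.16 in R 4.3.3: the quasi-likelihood test, filterByExpr, TMM within each assay, and Benjamini-Hochberg adjusted p under 0.05 over all genes tested. TE was the interaction of line and assay in the 8 libraries, coded KO3 minus KO2, and SE is the difference over the root of the F statistic. Log2 TE levels are footprint CPM over RNA CPM per lysate, with TMM over all lines of an assay. No error rate of the fit is given here. Replicate differences of RNA and footprints from the same lysates correlated with r of 0.117 in KO2 and 0.0799 in KO3 across 6509 genes. The p-values rest on the spread between 2 replicates of 1 clone each, which edgeR moderates across genes, so they do not rest on a gene's own replicates alone. In the fit with lysate terms the part shared over all genes weighs most. None of them measures the spread between clones. Members, lists and named genes were chosen with earlier results of these data known: all genes called for TE, the 5 largest rises and falls of each assay with at least 10 counts in its 4 libraries (some are not reported here), the EEF1 list, and the called and most abundant genes of the lists described. Alternatives included DESeq2 1.42.0. Guide sequences and deletion lengths are not used here.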

Additional observations from a re-analysis of the deposited data

How the results depend on the processing

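TE was called for 27 genes between KO3 and KO2, and for 18 with DESeq2's size factors, 36 without a filter, 28 with the transcript of the largest sum over the 8 libraries, 25 with all lines in 1 fit, 27 with TMM over both assays together, 30 at an adjusted p under 0.1 and 31 over all transcripts. It moved by more than 1.5 times to 17 with at least 10 counts in every library, 16 with libraries thinned to the smallest total among the 8, 4 with those thinned among the 12 of the clones, 13 in DESeq2's likelihood ratio test, 47 with a replicate block (replicate number across clones) and 72 with the lysate as a block, and it ranged from 7 to 33 when a replicate of a clone was left out, where the lone library is assumed to vary like the others. With its main transcript, none of the 27 changed direction in any of these. Mmp3, Hist1h1a, Vps53 and Aldh1a7 were called under every alternative that gave a value and without each replicate, and Rps12 in all but 1, while Slc16a6 was not called without any 1 of the 4 replicates.

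RNA of KO3 against KO2 stayed within 1.5 times of 5717 calls (4380 in the DESeq2 likelihood ratio test, 6520 with the replicate block, 4691 to 5073 without a replicate). Calls for footprints of KO3 against KO2 did so around 4059 except in that test (2176), and ranged from 3221 to 3674 without a replicate. Between KO1 and KO2, 17 genes were called for TE after thinning and 134 with the replicate block. Between KO3 and KO1 they were 42 and 215. The replicate numbers name no shared batch, and differences between replicates 1 and 2 correlated between the clones with r of 0.30 in RNA-seq and 0.136 in Ribo-seq. The cause was not tested, other than that thinning leaves fewer counts.

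Leaving out a replicate was run for the genes called for TE, for the EEF1 genes in TE and for the largest changes, and among these some differences that were not called changed sign. The TE of Eef1d ranged from -0.21 to 0.015, the RNA of Aldh1a7 from -0.35 to 0.10 (0.04 in another), and footprints of H2-Bl from -0.38 to 0.22, of Hist2h2ab from -0.022 to 0.13, of Gm14412 from -0.32 to 0.36 (-0.0050 in DESeq2) and of Tubg2 from -0.067 to 0.26. Median TE differences of the ribosomal protein and EEF1 lists, recomputed after seeing the data, kept their sign, at -0.20 to -0.16 (small subunit), -0.17 to -0.11 (large) and -0.34 to -0.12 (EEF1) without a replicate, as did the 6 chromosome medians of RNA. The small subunit median moved by more than the spread between replicates in 3 alternatives, all without a replicate, and each chromosome median did so in at least 1 of 12, most often the median RNA difference of chromosome 10, in 8, which stayed between 0.35 and 0.39. Depth limits both sides of the ratio: RNA in KO2 was 5 and 1 counts for Mmp3, footprints in KO3 were 0 and 1 for Plekhg6, and 25 of the 27 genes had at least 10 counts in every library.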

Other observations

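Gapdh, the glycolytic enzyme often used as a reference, had RNA between 3315 and 3516 CPM in the 4 libraries but footprints of only 1.24 to 3.68 CPM. Its fitted TE difference of -0.74 (SE 0.44) was not called. That value rests on 10 and 11 footprints in KO2 and 9 and 4 in KO3. The gene has many processed pseudogenes in the mouse. The median TE difference was -0.04 for the 380 genes of up to 100 counted codons and lay between -0.02 and 0.01 in longer classes, and the 27 called genes ranged from 60 to 3709 counted codons. Just past the threshold lay the zinc finger genes Zfp981 and Zfp64 and the transcription factor Nfat5, with TE differences of 2.96, -0.68 and 0.71 (edgeR adjusted p of 0.0501, 0.0687 and 0.0706).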
